A study of Mus musculus with 42 samples.

Results

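The 8 genes described here, *Pbsn*, *Tgm4*, *Msmb*, *Sbp*, *Svs2*, *Svs4*, *Svs5* and *Svs6*, encode proteins that the male accessory glands release into seminal fluid. They were chosen by name from the 26653 genes measured, 4 as secretory genes of the prostate and 4 as secretory genes of the seminal vesicle. RNA of 42 samples of male mice had been sequenced, 22 from wild-type mice, with 2 normal *Tug1* alleles, and 20 from *Tug1*-/- mice, in which a *lacZ* reporter stands in place of both copies of the long noncoding RNA gene *Tug1*. Prostate, where all of the genes but *Tgm4* had their highest value among these tissues, was represented by 3 wild-type and 2 knockout samples. Testes were represented by 4 and 3, and spleen, eye, heart, liver and mouse embryonic fibroblasts (MEFs) by 3 and 3 each. Seminal vesicle was not sampled. Both genotypes carried a C57BL/6J background. The tissues other than the MEFs came from adult mice, whose exact age is not given in the sources used here. No treatment of these mice is described, and the part of each organ taken, such as the lobes of the prostate, is not given. The MEFs were a primary culture from male embryos.

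The table holds 1 value per gene, genotype and tissue, in FPKM (fragments per kilobase of transcript, scaled to the mapped fragments of the library), for which the samples of a genotype had been combined by the authors. It therefore gives no spread between mice, and no difference below could be tested against one. A change is given as log2((knockout + 0.1)/(wild-type + 0.1)) of the FPKM values. A gene was counted as past 2-fold where this change was at least 1 in either direction and the mean of both genotypes was at least 1 FPKM. Depth is unknown, since the table holds no counts. *Tug1* itself was at 19.2 FPKM in wild-type and 0.101 in knockout prostate, and in testes at 27.7 and 0.402, which bears out the labels of these tissues.

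The secretions of the male accessory glands form most of the volume of semen. In rodents the seminal vesicle supplies the structural proteins of the copulatory plug, and the prostate, its anterior lobe (the coagulating gland) above all, supplies the transglutaminase that crosslinks them. Production of these proteins in the luminal cells of the glands depends on androgen. The genes of the seminal vesicle proteins lie together on mouse chromosome 2, where they arose by duplication and diverged fast.

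*Svs5* and *Svs6* are neighbours in that cluster, and the DNA before them is shown first because both genes carry nearly the same sequence there while their levels in prostate lay far apart. The stretches come from RefSeq on GRCm38.p6, run 5′ to 3′ on the plus strand, and end before the annotated start of each gene. That of *Svs5* is chr2:164332519-164332739 and that of *Svs6* is chr2:164316501-164316721. Capitals mark the bases that differ between them.
Svs5: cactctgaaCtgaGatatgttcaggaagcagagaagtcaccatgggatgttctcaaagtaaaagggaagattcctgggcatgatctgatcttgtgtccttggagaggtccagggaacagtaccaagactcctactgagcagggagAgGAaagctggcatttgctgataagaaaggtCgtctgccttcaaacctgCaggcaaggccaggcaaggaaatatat
Svs6: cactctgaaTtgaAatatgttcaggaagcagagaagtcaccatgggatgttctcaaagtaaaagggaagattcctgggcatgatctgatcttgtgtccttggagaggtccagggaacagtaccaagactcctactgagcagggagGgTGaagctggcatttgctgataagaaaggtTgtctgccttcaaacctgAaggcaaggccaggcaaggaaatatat
Of the 221 bases, 214 (96.8%) were identical and 7 differed. For comparison, the 250 bases before the RefSeq start of *Svs5* and *Svs6* aligned with 93.3% identity, and the other pairs among the seminal vesicle genes with 48.4% to 57.6%.

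A TATA box, the element that places the polymerase just before many strongly transcribed genes, was looked for as the letters TATAAA on the gene's strand, in the 30 bases from 40 to 11 bases before the RefSeq start. It was found in 4 of the 7 genes that matched a RefSeq promoter (*Tgm4*, *Svs4*, *Svs5* and *Svs6*). By promoter, this was 4 of the 9 that the 7 genes have, against 2.08% of the 32851 promoters of the reference. *Svs5* and *Svs6*, with nearly the same sequence there, are not separate cases. *Msmb* had no entry in that table. The 4 windows follow, with TATAAA in capitals.
Tgm4: cccaggagcaTATAAAaaggggccacatcc
Svs4: acctgagaaataTATAAAttaagaactcag
Svs5: ggcaaggaaataTATAAAggagaatcttag
Svs6: aggaaataTATAAAggagtatcttagcttc
They lie on GRCm38.p6 at chr9:123034701-123034730 (plus strand), chr2:164278318-164278347 (minus strand), chr2:164332725-164332754 and chr2:164316711-164316740 (both plus strand). In *Pbsn* the letters TATAAA began 59 bases before the RefSeq start, and in *Svs2* 236 and 205 bases before it. By the gene positions given below, the window of *Svs4*, part of that of *Svs5* and the TATAAA of *Pbsn* lie inside the genes.

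Because the genes are known to answer to androgen, the half-site of the androgen response element was looked for as AGAACA or, on the other strand, TGTTCT, in the 250 bases before each start. It stood in the promoters of 4 of the 7 genes, once each in *Pbsn*, *Svs5*, *Svs6* and 1 of the 3 RefSeq starts of *Sbp*. That is 4 of their 9 promoters, against 16.1% of all promoters. The full palindrome, a pair of inverted half-sites with 3 bases between them, was in none of the 9 promoters of these genes and in 3 of all 32851. The half-site of *Pbsn*, whose regulatory DNA is widely used to drive transgenes in prostate epithelium, began 95 bases before the RefSeq start and stands in capitals in chrX:77853578-77853607 (minus strand).
Pbsn: caactgggatgcAGAACActgctcacgcca
In *Svs5* and *Svs6* the half-site began 199 and 203 bases before the RefSeq start, in the stretch shared by both genes. By the gene positions given below, the half-sites of *Pbsn* and *Sbp* lie inside the genes and not before them. A match of letters describes these windows only.

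In prostate, the seminal vesicle genes moved apart from each other and *Svs5* stood out. *Svs5* was 2.75 times as high in knockout as in wild-type prostate, the other 3 seminal vesicle genes differed by 1.10 times (*Svs2*), 1.34 times (*Svs4*) and 0.676 times (*Svs6*), and *Pbsn*, the most abundant transcript of the tissue, was at 0.845 times its wild-type level. *Msmb* and *Sbp* were present at a few FPKM only and were at 1.72 and 1.39 times their wild-type level, while *Tgm4* had no usable value. Of the 8 genes, 6 had a mean of at least 1 FPKM in prostate. Of these, 1 was past 2-fold higher, against 0.904% of the 12166 genes at that level, and 0 were past 2-fold lower, against 0.205%.

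*Pbsn* (ENSMUSG00000000003.9; mm10 chrX:77837901-77853623, minus strand) encodes probasin, a secreted protein of the lipocalin family. It was listed at 25019.5 FPKM in wild-type and 21141 FPKM in knockout prostate, the highest value of any gene in both. That is 4.12% and 3.64% of the FPKM summed over all genes. Its level dropped by 3879 FPKM, more than that of any other gene, but on the log2 scale the change was -0.24, inside the range from -0.31 to 0.36 that held the middle 90% of genes. The luminal cytokeratins and other luminal epithelium markers were lower to a like extent, from -0.24 (*Cldn7*) to -0.10 (*Krt18*), in 7 of 7 genes. These values lay inside that range too, and 7405 of all 12166 genes at or above 1 FPKM were lower in the knockout. In RNA of unsorted tissue, fewer cells of a type and less RNA per cell cannot be told apart. Of the other members at or above 1 FPKM, *Svs2* also lay inside the range of the middle 90% of genes. *Msmb*, *Svs4*, *Svs5* and *Svs6* lay outside it.

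*Msmb* (ENSMUSG00000021907.6; chr14:32142026-32158370, plus strand) encodes beta-microseminoprotein, an abundant seminal fluid protein in humans. In these mice it was at 4.58 FPKM in wild-type and 7.90 FPKM in knockout prostate, a log2 change of 0.77. *Pbsn* exceeded it 5459 times in wild-type and 2675 times in knockout prostate.

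*Sbp* (ENSMUSG00000024128.7; chr17:23941672-23945607, plus strand) encodes spermine-binding protein, an androgen-dependent secretory protein of the mouse ventral prostate. Its level was 0.831 FPKM in wild-type and 1.15 FPKM in knockout prostate, with a log2 change of 0.43. It fell just short of the mean of 1 FPKM and was not counted. Of the stretches of 100 bases in its annotated transcripts, 9.21% also occur in those of the related gene *Sbpl*, so that part of its reads may be shared.

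*Tgm4* (ENSMUSG00000025787.5; chr9:123034739-123067561, plus strand), the prostate transglutaminase that crosslinks the plug proteins, was listed at 0 FPKM in both genotypes in prostate, with the status of too little data. That status cannot be read as low expression in this table. Of the 40 entries that carried it over the 7 tissues, 17 were at 0 in both genotypes, among them *Alb* in liver and *mt-Co1* in heart, which are among the most abundant transcripts of those organs. In prostate only *Tgm4* and *9530053A07Rik* carried it. No level and no change of *Tgm4* in prostate can be given, and the prostate genes below are described from the other 3.

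*Svs2* (ENSMUSG00000040132.6; chr2:164235929-164238466, minus strand) encodes the main clotting protein of the plug, the mouse counterpart of human semenogelin. It was at 4341 FPKM in wild-type and 4770.01 FPKM in knockout prostate, a log2 change of 0.14. *Svs4* (ENSMUSG00000016998.2; chr2:164275952-164278459, minus strand), a small seminal vesicle protein that coats sperm, was at 193 FPKM in wild-type and 259 FPKM in knockout, a change of 0.42. Both differences were in the same direction and neither reached 2-fold.

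*Svs5* (ENSMUSG00000017004.7; chr2:164332740-164334396, plus strand), another secretory protein of the seminal vesicle, was at 4182.5 FPKM in wild-type and 11507 FPKM in knockout prostate, a log2 change of 1.46. Its difference of 7324 FPKM was the largest gain of any gene in prostate, and its rank by level went from 14 in wild-type to 2 in knockout, next to *Pbsn*. *Svs6* (ENSMUSG00000017000.2; chr2:164316751-164318453, plus strand), with the nearly identical promoter shown above, was at 28.96 FPKM in wild-type and 19.6 FPKM in knockout, a change of -0.56. The ratio of *Svs5* to *Svs6* was thus 144 in wild-type and 588 in knockout prostate. The annotated transcripts of *Svs5* and *Svs6* share no exact stretch of 100 bases with each other or with another gene, and their longest forms aligned with 57.4% identity. Stretches alike but for a few mismatches were not looked for, so how reads were split between them was not tested.

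**Figure D1:**
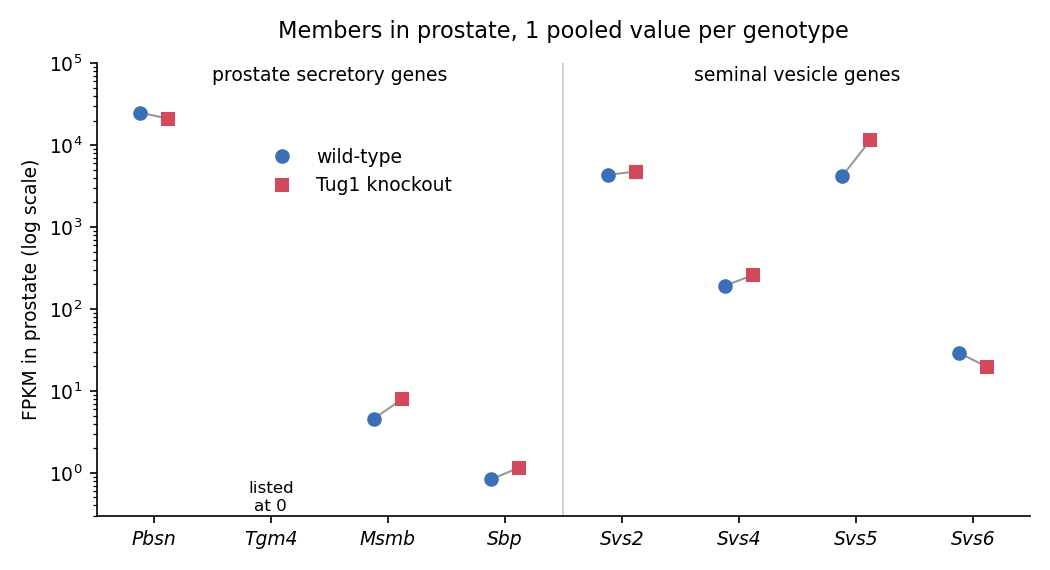
FPKM of the 8 genes in prostate on a log axis, with circles for wild-type and squares for knockout, 1 combined value each. *Svs5* went from 4182.5 to 11507 FPKM, *Pbsn* was highest in both genotypes, and *Tgm4* was listed at 0.

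Summed by gland, with *Tgm4* entering at its listed 0, the 4 prostate genes came to 25025 FPKM in wild-type and 21150.0 FPKM in knockout prostate, a ratio of 0.845 that rests on *Pbsn*. The 4 seminal vesicle genes came to 8746 and 16555 FPKM, a ratio of 1.89 that rests on *Svs5*. *Svs2* made up 49.6% and *Svs5* 47.8% of the seminal vesicle sum in wild-type, and 28.8% and 69.5% in knockout prostate. All 8 genes together, *Tgm4* again at 0, made up 5.56% of the FPKM of wild-type and 6.49% of that of knockout prostate. The median log2 change was 0.43 for the 3 prostate genes with a value and 0.28 for the 4 seminal vesicle genes, against -0.04 for all genes at or above 1 FPKM. The median of the 3 is the value of *Sbp*, which lies below 1 FPKM. It was 0.23 with a pseudocount of 1, and *Pbsn* and *Msmb*, the prostate genes at or above 1 FPKM, had a median of 0.27. The medians and the sums of the prostate genes point in opposite directions, because *Pbsn* alone carries the sum.

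By level, the order in wild-type prostate was *Pbsn*, *Svs2*, *Svs5*, *Svs4*, *Svs6*, *Msmb* and *Sbp*. In knockout prostate *Svs5* and *Svs2* had changed places. In wild-type the pair lay close together, with *Svs5* at 0.963 times *Svs2*, and in knockout *Svs5* was at 2.41 times *Svs2*. With no spread between mice, it cannot be said which neighbours in this order differ.

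Other seminal vesicle secretory genes also included higher and lower genes. Of 10 names listed, among them *Svs7* as another name for *Pate4*, 8 were in the table. Of the 7 with a mean of at least 1 FPKM, 1 was past 2-fold higher and 0 past 2-fold lower, and their median log2 change was -0.51. The one past 2-fold was *Pate4*, which encodes seminal vesicle secretory protein VII and lies outside the chromosome 2 cluster, at 951 FPKM in wild-type and 2925 FPKM in knockout prostate, a log2 change of 1.62. *Serpine2*, a protease inhibitor secreted by the seminal vesicle, was next in level, at 123 and 157 FPKM, and *Ceacam10* was at 6.86 and 7.93 FPKM. The remaining 4 genes were lower in the knockout, *Svs1* at 7.35 and 4.88 FPKM, *Svs3a* at 5.41 and 3.44 FPKM, *Svs3b* at 4.497 and 3.12 FPKM, and *Spinkl* at 7.09 and 3.85 FPKM.

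Among the 730 genes with a mean of at least 100 FPKM, a limit chosen after the values had been seen, 4 were past 2-fold higher and 2 past 2-fold lower in knockout prostate. *Svs5* and *Pate4* were among the 4, with *Cdo1*, a cysteine-degrading enzyme of liver and fat, and *Gm17571*. The 2 lower genes changed more, *Lars2* from 1559 FPKM in wild-type to 33.6 FPKM in knockout and *Gm17545* from 326 to 0 FPKM. Over all 11 seminal vesicle genes with a mean of at least 1 FPKM, 6 were higher, 5 were lower, and the median log2 change was 0.14.

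**Figure D2:**
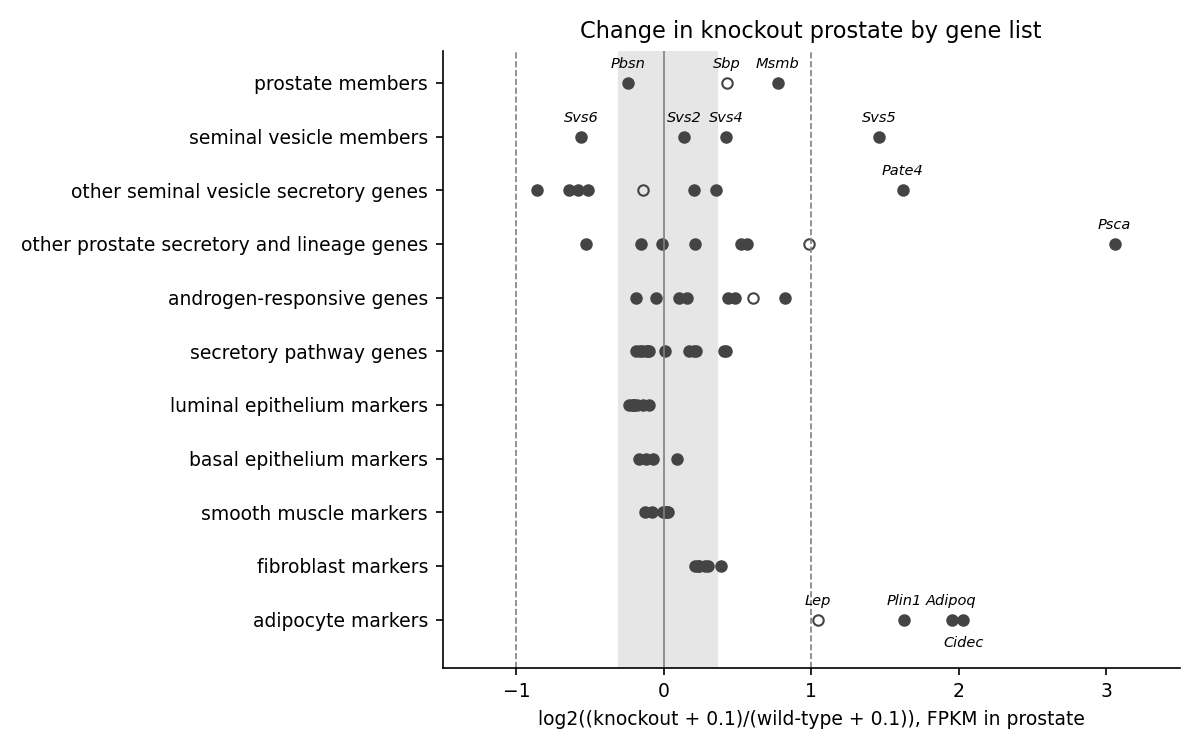
Log2 change of each gene in knockout prostate by list, with filled circles for a mean of at least 1 FPKM and open circles below it. Dashed lines mark 2-fold and the grey band the middle 90% of all genes. *Svs5*, *Pate4*, *Psca* and the adipocyte markers lie past 2-fold.

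Along chromosome 2, the 4 seminal vesicle genes of the set span 98468 bp, and 6 genes of the table lie in that span. Higher and lower genes were interspersed. In order, *Svs2* was higher, *Svs3b* lower, *Svs4* higher, *Svs3a* lower, *Svs6* lower and *Svs5* higher in the knockout. The start of *Svs6* lies 15.989 kb from that of *Svs5* and that of *Svs2* 94.274 kb. The 3 lower genes were those of lowest level, none above 28.96 FPKM, and the 3 higher genes were at 193 FPKM or more. *Svs3a* and *Svs3b* share 26.6% and 27.6% of the stretches of 100 bases in their transcripts with each other, so the split of reads between this pair is uncertain.

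**Figure D3:**
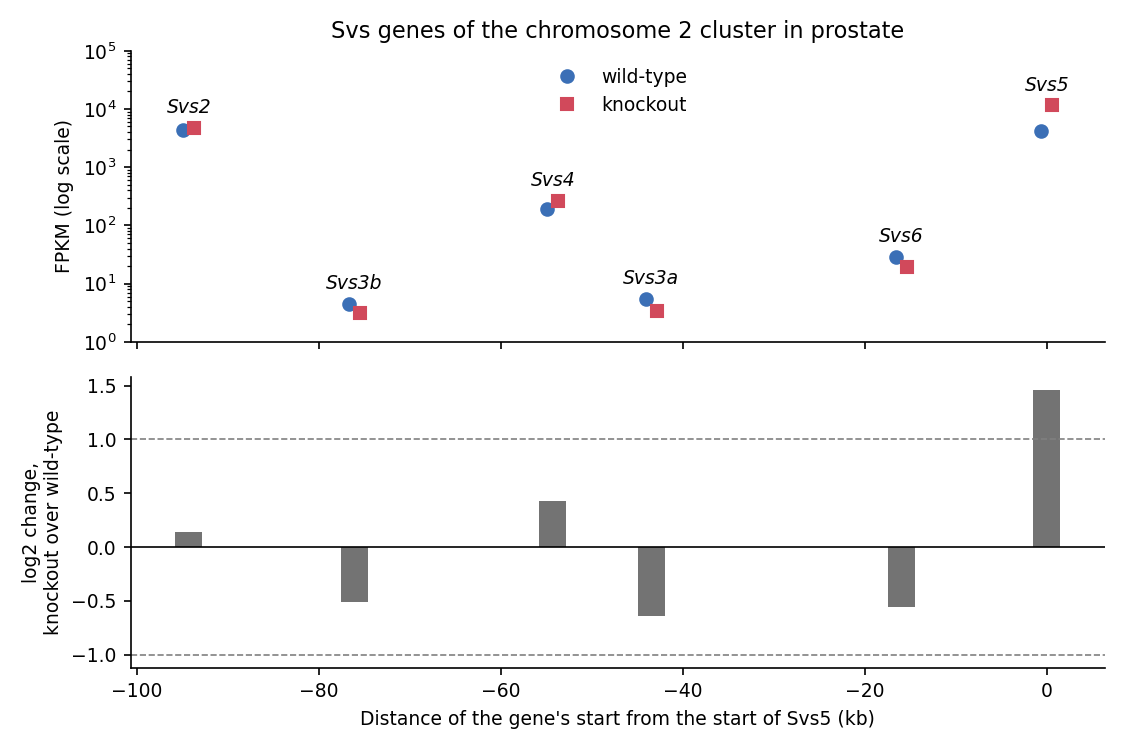
FPKM on a log axis (top) and log2 change in knockout prostate (bottom) of the 6 *Svs* genes of the cluster, by distance in kb from the start of *Svs5*. Bars above 0 are *Svs2*, *Svs4* and *Svs5*, and dashed lines mark 2-fold.

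Other secretory and lineage genes of the prostate were listed as well. Of 7 with a mean of at least 1 FPKM, 1 was past 2-fold higher and 0 past 2-fold lower, with a median log2 change of 0.21. *Defb50*, a beta-defensin, was at 613 FPKM in wild-type and 907 FPKM in knockout, *Azgp1*, a secreted zinc-binding glycoprotein, at 459 and 455 FPKM, and *Hoxb13*, a transcription factor of the prostate, at 132 and 119 FPKM. The gene past 2-fold was *Psca*, a surface antigen of prostate and urothelium, at a low level of 0.189 FPKM in wild-type and 2.31 FPKM in knockout.

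Of 7 androgen-responsive genes with a mean of at least 1 FPKM, 0 were past 2-fold in either direction. The values lay from -0.19 (*Tmprss2*, a membrane protease) to 0.83 (*Fkbp5*, a chaperone partner of steroid receptors, at 12.4 and 22.1 FPKM), with a median of 0.16. *Sord*, which makes fructose from sorbitol, had the highest level on this list, at 244 FPKM in wild-type and 235 FPKM in knockout. *Tmprss2* followed at 185 and 163 FPKM, and *Dbi*, which binds acyl-CoA, at 111 and 119 FPKM.

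The general machinery of secretion stayed within 2-fold in 12 of 12 listed genes, with a median of -0.05. *Pdia6*, a disulphide isomerase, was at 1024 FPKM in wild-type and 943 FPKM in knockout, and *Ssr4*, of the translocon, at 954 and 855 FPKM. The largest values were those of *Dnajb9* and *Hspa5*, chaperones of the endoplasmic reticulum, with changes of 0.43 and 0.41.

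Markers of epithelium and smooth muscle, which are not particular to prostate, were present in the tissue. Of the secretory genes of the prostate, *Pbsn*, *Defb50* and *Azgp1* were abundant. Among those that were low were *Sbp*, *Msmb* and *Spink3*, at 0.831, 4.58 and 4.03 FPKM in wild-type. The 7 luminal epithelium markers summed to 1661 FPKM in wild-type and 1481 FPKM in knockout, the 4 basal epithelium markers to 123 and 117 FPKM, and the 6 smooth muscle markers to 2733 and 2725 FPKM. Fat showed the largest difference among the cell types listed. The 4 adipocyte markers summed to 10.7 FPKM in wild-type and 41.5 FPKM in knockout prostate, and 3 of the 3 with a mean of at least 1 FPKM were past 2-fold higher, *Adipoq* at 3.93 and 15.5 FPKM, *Cidec* at 4.82 and 20.0 FPKM, and *Plin1* at 1.60 and 5.17 FPKM. The fibroblast markers were higher in 6 of 6 genes by 0.21 to 0.39, against 4761 higher of all 12166 genes at or above 1 FPKM. They summed to 253 and 313 FPKM. These markers were higher in the knockout, as *Svs5* and *Pate4* were, and their part in that difference was not tested.

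Markers of other cell types and of nearby ducts and organs were present at different levels. Of the 6 epididymis markers, *Lcn5*, *Lcn8* and *Cst8* were listed at 0, and the sum of the 6 was 5.02 FPKM in wild-type and 3.79 FPKM in knockout, nearly all of it *Crisp1*. Of the testis germ cell markers, *Prm2* and *Tnp1* were listed at 0, and the sum of the 4 was 7.57 and 6.61 FPKM, nearly all of it *Acrv1*. The 4 urothelium markers summed to 138 and 129 FPKM, nearly all of it *Upk1b*. The 5 skeletal muscle markers summed to 181 and 172 FPKM, nearly all of it *Acta1*, and the 4 white blood cell markers to 6.11 and 7.002 FPKM. In none of these 5 lists was a gene with a mean of at least 1 FPKM past 2-fold. A list that marks seminal vesicle tissue apart from its secretory genes was not used, so seminal vesicle left on the dissected prostate and expression of these genes within prostate lobes cannot be told apart here.

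Outside prostate the set was nearly silent, with the exceptions of *Tgm4* and, in testes, *Svs5*. Of 84 values of the other 7 genes in the other 6 tissues, 68 were listed at 0 and 3 reached 1 FPKM. *Sbp* was listed at 0 in all of these 6 tissues, and *Pbsn* was above 0 in spleen only, at 0.00732 FPKM in wild-type and 0.0102 FPKM in knockout. *Msmb* was at 0.0515 and 0.0698 FPKM in testes, at 0.0148 and 0.0182 FPKM in spleen, and in MEFs at 0.0336 FPKM in wild-type only.

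Testes showed all 4 seminal vesicle genes above 0, in a different order of level from prostate. *Svs5* was at 3.96 FPKM in wild-type and 4.83 FPKM in knockout testes, a log2 change of 0.28. *Svs4* was at 0.603 and 0.574 FPKM, *Svs6* at 0.455 and 1.06 FPKM, and *Svs2*, the highest of the 4 in wild-type prostate, at 0.0650 and 0.0408 FPKM. Only *Svs5* had a mean of at least 1 FPKM there and it stayed within 2-fold, in a tissue where 0.291% of 15143 genes were past 2-fold higher. *Svs6* in testes changed by 1.07 on the log2 scale at a mean below 1 FPKM and was not counted. In prostate *Svs6* had been lower in the knockout.

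*Tgm4* was the only one of the 8 above 0 in all 6 of these tissues. It was highest in eye, at 4.28 FPKM in wild-type and 3.54 FPKM in knockout, followed by heart at 2.26 and 2.18 FPKM, MEFs at 1.87 and 2.06 FPKM, liver at 1.05 and 1.01 FPKM, spleen at 0.918 and 0.986 FPKM, and testes at 0.477 and 0.576 FPKM. The changes lay between -0.27 in eye and 0.23 in testes. In GENCODE vM21, 830 of the 4555 exonic bases of *Tgm4* are also exonic in *Zdhhc3*, a palmitoyltransferase gene on the opposite strand, and 307 in *Gm49323* on the same strand. The library kit does not keep the strand, so reads from these bases cannot be assigned to one of the genes, and how much of the level of *Tgm4* outside prostate they make up was not tested.

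The genes were set apart from other tissues to very different degrees. The lower prostate value of *Pbsn* was 2.07e+06 times its highest value elsewhere, that of *Svs2* 66829 times, that of *Svs5* 866 times, that of *Svs4* 320.5 times, that of *Msmb* 65.7 times and that of *Svs6* 18.4 times. *Sbp* was listed at 0 elsewhere and *Tgm4* in prostate, so neither has a ratio. The FPKM of all genes summed to 606953 in wild-type and 580613 in knockout prostate, and in wild-type from 378014 in eye to 1124495 in liver, so ratios between tissues carry these totals too.

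**Figure D4:**
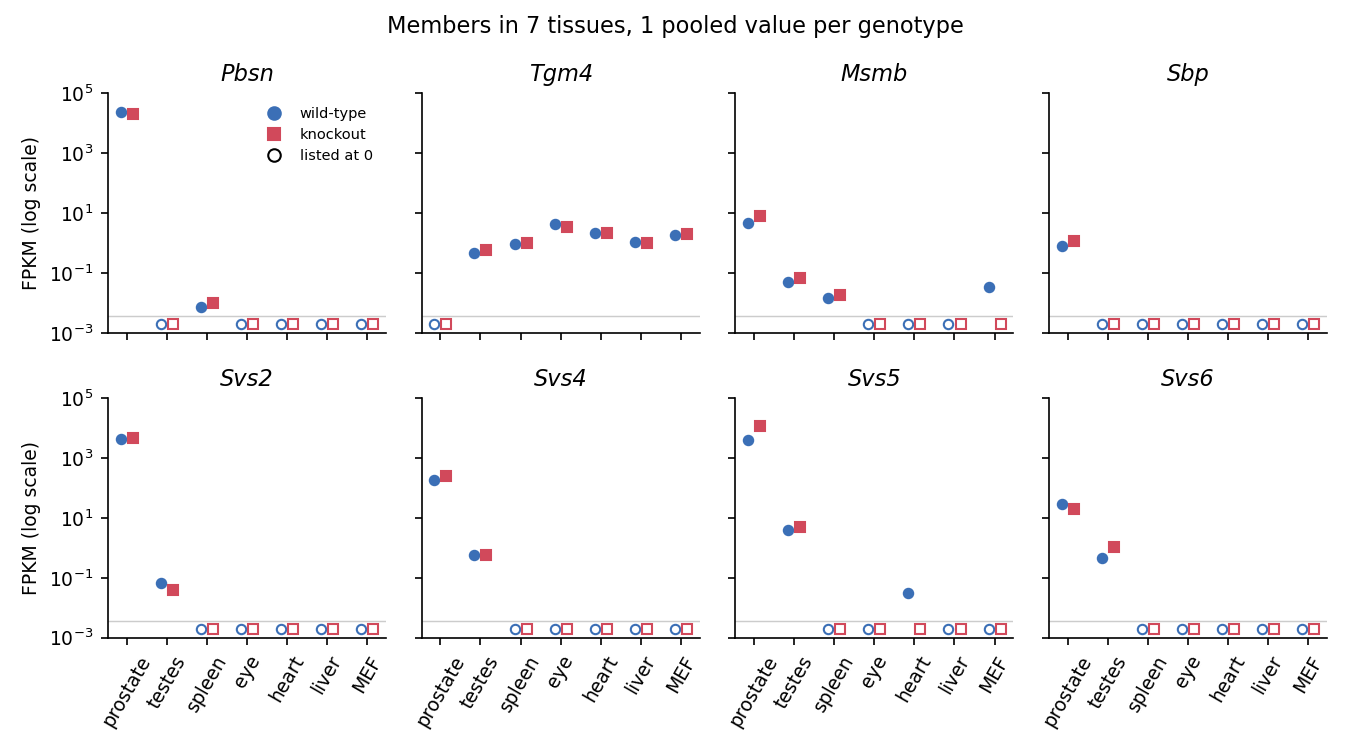
FPKM of each of the 8 genes in 7 tissues on a log axis, with circles for wild-type, squares for knockout and open symbols under the grey line for values listed at 0. Only *Tgm4* is above 0 in every tissue but prostate, and the *Svs* genes are above 0 in testes.

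The genes whose pattern over the 14 values (7 tissues in both genotypes) was most like that of the set were found by Pearson's r of log2(FPKM + 0.1) among 13896 genes that reached 10 FPKM, as a description, since the points share tissues and most lie near 0. The 5 most like the mean of the prostate genes were *Fam115e*, *Defb50*, *Gm10935*, *Gm16065* and *Sp8*, with r from 0.996 to 0.998. Among the 5 most like the mean of the seminal vesicle genes were *Atp6v1c2*, *9530002B09Rik*, *Atp12a* and *Ren1*, with r from 0.993 to 0.998. The lists shared 0 genes. *Tgm4* entered the first mean with its 0 in prostate, and without it 4 of the 5 genes were the same. In prostate, none of the genes named here was past 2-fold, and *9530002B09Rik* and *Ren1*, at 7922 and 7690 FPKM in wild-type, were at 7261 and 5665 FPKM in knockout, both lower where *Svs5* was higher.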

How the data were processed

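Polyadenylated RNA had been sequenced as unstranded libraries. Per the labels, CASAVA 1.8.2, TopHat2 and Cuffdiff were used with mm10, with no role or order given. The deposited values are FPKM, which the authors combined over the samples of a genotype; the table also holds the authors' fold changes, test statistics, p-values and q-values, which were not used. Brain was not analysed here. The paper's methods describe another route for the authors' own calls. The members and gene lists were chosen with earlier results of these data known.

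Genes were named by a fixed rule: all 8 members in every tissue and genotype, up to 3 genes of highest mean in each list together with those past 2-fold, the 5 genes most like each class, and *Tug1*. Further genes named, such as *Cdo1*, *Gm17571*, *Lars2*, *Gm17545*, *Fkbp5*, *Dnajb9*, *Spink3*, *Spinkl*, *Svs1*, *Svs3a*, *Svs3b* and *Cldn7*, were chosen after their values were seen. Some genes of the lists are not reported here. Positions are those of the deposited table, with starts counted from 1. Promoters were taken from RefSeq on GRCm38.p6, the same assembly as mm10. Alignments were global, by Biopython 1.88. Counting was checked on wild-type prostate values with known changes planted and no noise added, which tests the code only. The work was done in Python 3.11.15 with numpy and pandas. The table used gives no value per sample, count or depth, so no test or interval was computed. Pseudocounts, filters, fold limits and rescalings were varied.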

Additional observations from a re-analysis of the deposited data

How the results depend on the processing

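The changes of the 7 members with a value in prostate kept their direction under pseudocounts of 1 and 0.01 and under both rescalings of the knockout (by 1.06 to equal totals of all other genes, by 1.03 to a median change of 0), with *Svs5* from 1.46 to 1.54, *Svs6* from -0.56 to -0.48 and *Pbsn* from -0.24 to -0.16. The ratio of the summed seminal vesicle genes was between 1.89 and 2.00 and that of the prostate genes between 0.845 and 0.892. Changes of the fold limit moved the number of members past it from 1 to 2 at 1.5-fold, by adding *Msmb*, and to 0 at 4-fold. The share of all genes past 2-fold in either direction was 1.11%, and became 0.732% with a pseudocount of 1, 1.78% with no filter on low values, 0.556% at a mean of at least 10 FPKM and 0.822% at 100 FPKM, the last chosen after seeing the data. As no spread between samples is known, a value was taken as moved where it shifted by over 1.5 times. In other tissues 58 of 60 recomputed changes moved by less, and the others were *Svs5* in heart and *Msmb* in MEFs with a pseudocount of 0.01. No paired analysis was possible because the table gives 1 combined value per genotype, and leaving out a replicate was not possible for the same reason.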
